A study of Mus musculus with 4 samples.

Results

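The genes described here encode serum response factor, its myocardin-related cofactors and the actomyosin cytoskeleton that they control. They were followed in mouse spleen cells sorted as marginal zone macrophages. The list held 36 genes, and every probe with exactly 1 gene symbol from the list was taken, which gave 82 probes for 33 genes out of 45281 probes for 19057 genes. Actg1, Cnn3 and Tgfb1i1 had no such probe. A probe was tested if it exceeded the background of at least 1 array, which 57 of the 82 did, covering 30 genes. The remaining 25 probes lay above background on no array and included every probe of Myl9, Cnn1 and Thbs1.

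All mice carried the BXD2 background, a recombinant inbred strain prone to autoimmunity, and were 2.5 months old. Spleen cells were sorted as SIGN-R1 positive and CD11b low, without I-Ab (MHC class II) or the macrophage antigen encoded by Adgre1, and each of the 4 arrays pooled cells of 2 mice killed 10 hours after injection. PBS-treated BXD2 mice gave a pair of control arrays. PBS-treated BXD2-Ifnar-/- mice, in which type I interferons cannot signal through their receptor, gave 1 array. BXD2 mice injected intravenously with 25 µg of sLTβR-Fc, a soluble decoy that binds lymphotoxin, gave 1 more. Without an array for an unrelated Fc protein, blockade and other effects of the injected protein cannot be told apart. The submitters describe the macrophages as defective in BXD2 mice, normalised without the receptor and impaired further by the decoy, and the comparisons ask what goes with each state. The Ifnar-/- and sLTβR-Fc arrays have no replicate, and the arrays hold bulk RNA, in which fewer cells of a type and less RNA per cell cannot be told apart.

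Serum response factor (Srf) binds a short DNA element, the CArG box. Mrtfa and Mrtfb are held in the cytoplasm by actin monomers, and when monomers are built into filaments they enter the nucleus and switch on Srf targets, many of which encode actin, myosin II and the proteins that bundle, cap or steer filaments. In macrophages the same proteins serve migration, phagocytosis and adhesion to the stroma, whereas Acta2, Tagln, Cnn1 and Myl9 are best known from smooth muscle and fibroblasts.

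Sequences of the promoters show which of these genes carry the element that names the group. Of the 36 genes, 30 had a window in the RefSeq promoter table (GRCm38.p6), running from 250 bases before to 50 after the start. A CArG box (CC, then 6 bases that are each A or T, then GG, a pattern that reads the same way on both strands) was found in 7 of them, or 23.3%, against 1.81% of all 27025 genes. The genes were listed for their link to Srf, so this share describes the choice of genes. The lines below show the boxes of the 5 genes measured here, in capitals, read 5′ to 3′ along the gene's strand and ending before the start site. Srf has a pair of boxes in its own promoter, and the second Fhl2 window holds another box.
Srf, chr17:46556195-46556264, minus strand: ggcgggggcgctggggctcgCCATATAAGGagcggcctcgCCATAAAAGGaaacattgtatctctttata
Myl6, chr10:128493030-128493079, minus strand: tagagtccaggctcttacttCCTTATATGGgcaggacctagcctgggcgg
Cnn2, chr10:79988524-79988573, plus strand: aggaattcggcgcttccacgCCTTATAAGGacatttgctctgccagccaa
Fhl2, chr1:43163963-43164012, minus strand: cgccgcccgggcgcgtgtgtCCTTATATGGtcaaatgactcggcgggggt
Lima1, chr15:99820167-99820216, minus strand: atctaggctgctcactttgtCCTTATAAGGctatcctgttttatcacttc
The Srf boxes begin 82 and 62 bases before the start, and those of Myl6, Cnn2, Fhl2 and Lima1 begin 50, 56, 31 and 47 bases before it. Myl9 and Actg1, which were not measured above, also hold a box in their windows. Against the controls, the 5 measured genes had adjusted p values (limma) between 0.11 for Myl6 and 0.92 for Srf in the Ifnar-/- array, and between 0.11 for Myl6 and 0.93 for Srf in the sLTβR-Fc array.

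Each lone array held actomyosin genes called higher and others called lower, and the myosin heavy chain Myh9 had the lowest difference in both. Values are intensities after quantile normalisation between arrays, each gene is represented by its brightest probe unless stated, and a gene is called when its adjusted p in limma is under 0.05 over all 24102 probes tested. On the Ifnar-/- array 4 of the 30 tested genes were called higher (Actg2, Actn4, Tpm4 and Pfn1) and 3 lower (Actn1, Myh9 and Myh10), which is 13.3% and 10.0%, beside 5.79% and 5.96% of all 14785 genes. On the sLTβR-Fc array 4 were called higher (Acta2, Tpm2, Tagln2 and Ccn2) and 4 lower (Myh9, Myh10, Tpm3 and Coro1a), 13.3% each, beside 7.71% and 5.86% of all genes. Only Myh9 and Myh10 were called in both comparisons, which share their controls. The Ifnar-/- array lay above both controls for 16 genes and below both for 7 (42.9% and 35.0% of all genes), and the sLTβR-Fc array for 13 and 11 (43.8% and 35.6%). Counted over all 57 tested probes, 8 were called higher and 3 lower in the Ifnar-/- array (5.19% and 5.58% of all probes), and 6 higher and 5 lower in the sLTβR-Fc array (6.30% and 6.38%). The median log2 difference of the tested genes was 0.070 in the Ifnar-/- array and -0.013 in the sLTβR-Fc array, beside 0.015 and 0.018 over all genes.

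**Figure D1:**
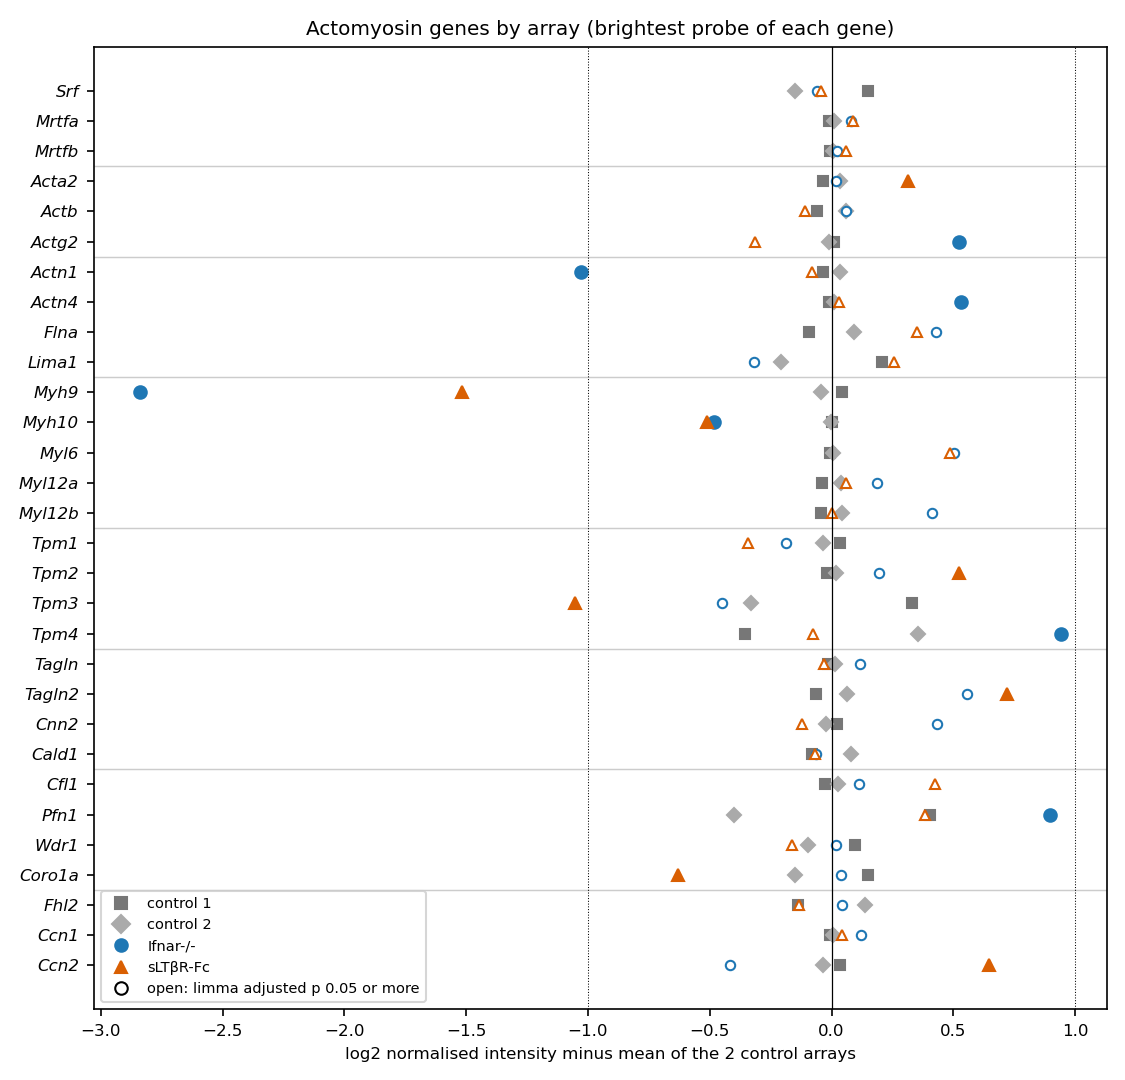
Each row is a gene with a probe above background on at least 1 array, ordered by role, and the x axis gives the log2 normalised intensity minus the mean of the 2 control arrays. Squares and diamonds are the controls, circles the Ifnar-/- array and triangles the sLTβR-Fc array, filled where limma's adjusted p is under 0.05. Myh9 is the only gene with points past the dotted 2-fold line on both arrays.

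**Figure D2:**
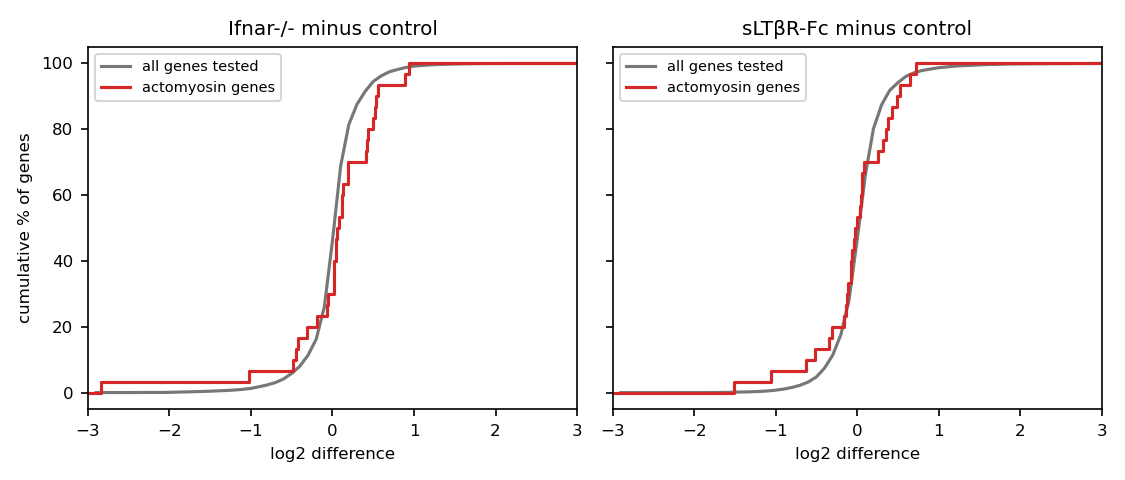
The y axis gives the percent of genes at or below a log2 difference from the control mean, for the 30 actomyosin genes (red) and the 14785 genes tested (grey, in steps of 0.1). The actomyosin medians of 0.070 and -0.013 lie beside all-gene medians of 0.015 and 0.018, and Myh9 forms the lowest step in each panel.

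The fit takes its spread from the control pair alone, with 1 residual degree of freedom and a prior worth 39.5, and assumes that each lone array varies as the controls do. A 2-fold difference from each control array in the same direction was met by 1 gene in each comparison, Myh9, as lower (0.927% of all genes in the Ifnar-/- array and 0.460% in the sLTβR-Fc array), and by no gene as higher (0.561% and 1.00%). Without control 1 the Ifnar-/- count was 3 and without control 2 it was 2, and without control 2 the sLTβR-Fc count was 2. Leaving out a control makes the 2-fold rule easier to meet, so these counts could only stay or rise. With no scaling between arrays the median of all genes was -0.14 and -0.21. The calls were then 0 higher and 6 lower in the Ifnar-/- array and 0 and 13 in the sLTβR-Fc array. Of all 14785 genes, 236 were called higher and 2150 lower in the Ifnar-/- array, and 177 and 4908 in the sLTβR-Fc array. The 8 higher calls named above were thus lost and the 7 lower ones held. With arrays scaled to a common upper quartile of probes above background, the median of all genes was 0.14 and 0.40. The calls were then 4 and 2 in the Ifnar-/- array and 11 and 3 in the sLTβR-Fc array. Over all genes they were 779 and 782, then 7855 and 914, so most genes were called higher in the sLTβR-Fc array under that scaling. Without a variance trend Myh10, Tpm4 and Pfn1 lost their call in the Ifnar-/- array, as did Acta2, Tpm3 and Coro1a in the sLTβR-Fc array. With low values raised to a floor limma called none of the group and none of all genes.

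The regulators did not pass the test on the quantile normalised values. Srf read 1997 and 1624 in the control arrays, 1728 in the Ifnar-/- array and 1748 in the sLTβR-Fc array, so that both lone arrays lay between the controls (log2 -0.06 ± 0.22 and -0.04 ± 0.22, SE). In the values as deposited Srf was called lower in the sLTβR-Fc array (log2 -0.74, adjusted p = 0.026), as were 4908 of all 14785 genes. Mrtfa, the cofactor that senses actin monomers, read 106 and 107 in the control arrays and 113 on each lone array, and it was above background only on the lone arrays. Mrtfb, its close relative, read 108 and 109 in the control arrays, 110 in the Ifnar-/- array and 113 in the sLTβR-Fc array, the only array on which that probe was above background. Both cofactors therefore sat at the detection limit. Under the upper-quartile scaling they were called higher in the sLTβR-Fc array (log2 0.61 for Mrtfa and 0.58 for Mrtfb, adjusted p = 0.0010 and 0.0016). That scaling multiplies background too, and it called 7855 of all 14785 genes higher there, with a median of 0.40. These calls therefore do not separate the cofactors from other dim probes.

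The actins differed by gene and by probe. Actb, cytoplasmic β-actin, read 25775 and 28047 in the control arrays, 28047 in the Ifnar-/- array and 24940 in the sLTβR-Fc array (adjusted p = 0.71 and 0.39), and its probe ranked between 10 and 29 from the top of all probes in the deposited values, close to the highest intensities of the scale. Under the upper-quartile scaling the sLTβR-Fc difference turned from -0.11 to 0.31, where the median of all genes was 0.40. A second, dim Actb probe read 120, 120, 135 and 187 in the same order and was called higher in the sLTβR-Fc array (log2 0.64 ± 0.10, adjusted p = 1.6e-05), in the opposite direction to the bright probe.

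Actg2, the γ-actin of enteric smooth muscle, rose in the Ifnar-/- array. It read 153 and 151 in the control arrays, 218 in the Ifnar-/- array (log2 0.52 ± 0.11, adjusted p = 0.0013) and 122 in the sLTβR-Fc array (log2 -0.31 ± 0.11, adjusted p = 0.065), so the lone arrays lay on opposite sides of the controls. The sLTβR-Fc difference of Actg2 was 0.13 under the upper-quartile scaling, on the same side as the Ifnar-/- array but below the all-gene median of 0.40. Actg2 was called lower there as deposited (log2 -0.47, adjusted p = 0.0073) and with normexp (log2 -0.46, adjusted p = 0.033). Acta2, the α-actin of vascular smooth muscle, read 126 and 132 in the control arrays, 131 in the Ifnar-/- array and 160 in the sLTβR-Fc array (log2 0.32 ± 0.10, adjusted p = 0.034). Its further tested probes gave -0.02, 0.07 and -0.03 in the sLTβR-Fc array, and the second of the Acta2 probes was called higher in the Ifnar-/- array instead (154 against 125 and 113, log2 0.38 ± 0.10). Actin transcripts are much alike, and a probe of 1 actin may also bind another.

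Myosin II is the motor that pulls on actin filaments, and Myh9 encodes its main heavy chain in blood cells. The brightest Myh9 probe read 2395 and 2252 in the control arrays, 324 in the Ifnar-/- array and 812 in the sLTβR-Fc array. It fell 7.16-fold in the Ifnar-/- array (log2 -2.84 ± 0.22, adjusted p = 5.3e-12) and 2.86-fold in the sLTβR-Fc array (log2 -1.52 ± 0.22, adjusted p = 3.65e-06), with both lone arrays far below both controls. The second Myh9 probe moved the other way. It read 455 and 320 in the control arrays, 765 in the Ifnar-/- array and 690 in the sLTβR-Fc array, and was called higher on each (log2 1.00 ± 0.22, adjusted p = 0.00115, and 0.86 ± 0.22, adjusted p = 0.0057). A further, dim probe read 124, 115, 145 and 116 and was called higher in the Ifnar-/- array (log2 0.28 ± 0.09, adjusted p = 0.044).

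The ratio of the first Myh9 probe to the second was 5.26 and 7.05 in the control arrays, 0.42 in the Ifnar-/- array and 1.18 in the sLTβR-Fc array. The probes thus changed unequally, and no direction can be given for the gene's transcripts as a whole. The positions of the probes along Myh9 were not used here.

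**Figure D3:**
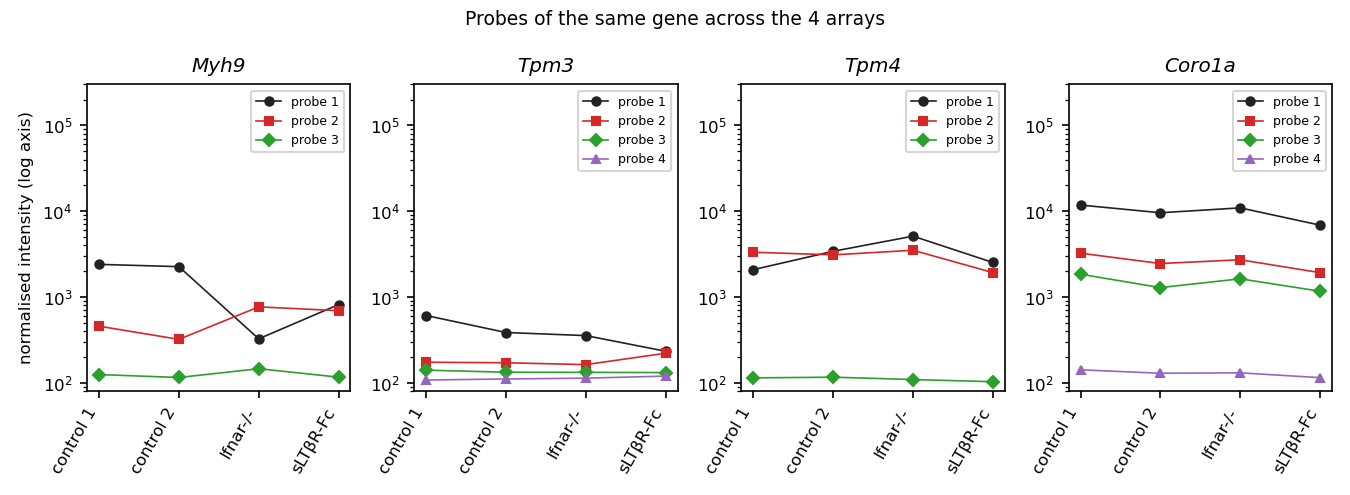
Normalised intensity on a log axis for every tested probe of Myh9, Tpm3, Tpm4 and Coro1a on the 4 arrays, with probes numbered from the brightest and lines joining the values of a probe. From the controls to the Ifnar-/- array the first Myh9 probe goes down and the second up, whereas the 4 Coro1a probes are all lowest in the sLTβR-Fc array.

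Myh10, the other heavy chain measured, fell on both lone arrays. It read 156 and 156 in the control arrays, 111 in the Ifnar-/- array (log2 -0.48 ± 0.10, adjusted p = 0.00048) and 109 in the sLTβR-Fc array (log2 -0.51 ± 0.10, adjusted p = 0.00021). The last value was not above background, so on the quantile normalised values this probe lay at least 1.41-fold lower there. Under the upper-quartile scaling neither call held, and the sLTβR-Fc difference was -0.055, beside a median of 0.40 over all genes. The other Myh10 probes were above background on no array. The light chains did not pass the test on the quantile normalised values. Myl6, the essential light chain, read 2104 and 2125 in the control arrays, 2993 in the Ifnar-/- array and 2960 in the sLTβR-Fc array, above both controls on both arrays but with an adjusted p of 0.11 in each comparison. Its second probe lay at log2 0.38 and 0.58. In the sLTβR-Fc array Myl6 was called higher under the upper-quartile scaling (log2 0.45, adjusted p = 0.033) and lay at -0.15 as deposited. The medians of all genes under these settings were 0.40 and -0.21. The regulatory light chain Myl12b read 5340 and 5658 in the control arrays, 7306 in the Ifnar-/- array (log2 0.41 ± 0.15, adjusted p = 0.077) and 5507 in the sLTβR-Fc array, where it was called lower as deposited (log2 -0.51, adjusted p = 0.033). Its near-copy Myl12a read between 157 and 183 on the 4 arrays, and the probes of these genes may not separate them.

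Crosslinkers tie filaments into bundles and networks. Actn1, an α-actinin of stress fibres and adhesion sites, fell in the Ifnar-/- array, where it read 905 against 1806 and 1891 in the control arrays (2.04-fold, log2 -1.03 ± 0.22, adjusted p = 0.00090). On the sLTβR-Fc array it read 1749, close to the controls (log2 -0.08 ± 0.22). Actn4, the other α-actinin of non-muscle cells, moved the opposite way in the Ifnar-/- array, with 235 against 162 and 164 (log2 0.53 ± 0.13, adjusted p = 0.0032), and its second probe was also called higher (log2 0.36 ± 0.10, adjusted p = 0.018). On the sLTβR-Fc array Actn4 read 166.

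Flna, filamin A, which links filaments to the membrane, read 681 and 775 in the control arrays, 978 in the Ifnar-/- array and 927 in the sLTβR-Fc array. Both lone arrays lay above both controls, but the differences (log2 0.43 ± 0.22 and 0.35 ± 0.22) did not pass the test (adjusted p = 0.26 and 0.34), and the sLTβR-Fc one was -0.35 as deposited. Lima1, a bundling protein that slows filament turnover, read 242 and 182 in the control arrays, 169 in the Ifnar-/- array and 251 in the sLTβR-Fc array, just outside the range of the controls on either side. Its second probe read 191 and 165 in the control arrays, 180 in the Ifnar-/- array and 161 in the sLTβR-Fc array. As deposited the sLTβR-Fc difference of Lima1 was -0.24, and it was called lower in the Ifnar-/- array (log2 -0.58, adjusted p = 0.024).

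Tropomyosins coat filaments and set which myosins and severing proteins can reach them, and each gene makes several isoforms. Tpm4 read 2079 and 3403 in the control arrays, which stood apart themselves, 5109 in the Ifnar-/- array (log2 0.94 ± 0.21, adjusted p = 0.0018) and 2521 in the sLTβR-Fc array, between the controls. The Ifnar-/- difference was 0.59 without control 1 and 1.30 without control 2. A second Tpm4 probe read 3318 and 3090 in the control arrays, 3499 in the Ifnar-/- array (log2 0.13 ± 0.19) and 1921 in the sLTβR-Fc array, where it was called lower (log2 -0.74 ± 0.19, adjusted p = 0.0075). These Tpm4 probes were thus each called on a different array.

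Tpm3 fell in the sLTβR-Fc array by its brightest probe, which read 606 and 384 in the control arrays, 354 in the Ifnar-/- array and 232 in the sLTβR-Fc array (log2 -1.06 ± 0.21, adjusted p = 0.00030). The difference was -0.73 without control 1 and -1.38 without control 2. The second Tpm3 probe read 173, 171, 162 and 220 and lay at log2 0.36 on that array (adjusted p = 0.054), and its dimmer tested probes at -0.05 and 0.13. Tpm2 rose in the sLTβR-Fc array, with 185 against 127 and 130 in the control arrays and 147 in the Ifnar-/- array (log2 0.52 ± 0.11, adjusted p = 0.00055). Tpm1 read 997 and 949 in the control arrays, 855 in the Ifnar-/- array and 767 in the sLTβR-Fc array, below both controls on each lone array without passing (adjusted p = 0.70 and 0.35).

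Myh9, Tpm3 and Tpm4 were the 3 genes of the group whose tested probes lay at least 1 log2 unit apart in either comparison, out of 18 with several tested probes (16.7%). Over all 6020 genes with several tested probes the share was 5.78%. Genes differ in their number of probes and in brightness, so these shares are given as a description.

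Calponins and transgelins bind along actin filaments. Tagln2, the member made by blood cells, read 1239 and 1349 in the control arrays, 1899 in the Ifnar-/- array and 2132 in the sLTβR-Fc array. It was above both controls on both lone arrays and passed in the sLTβR-Fc array (log2 0.72 ± 0.22, adjusted p = 0.022), not in the Ifnar-/- array (log2 0.55 ± 0.22, adjusted p = 0.10). In the values as deposited the sLTβR-Fc difference was 0.02. Cnn2, the calponin of non-muscle cells, read 589 and 571 in the control arrays, 782 in the Ifnar-/- array and 532 in the sLTβR-Fc array (adjusted p = 0.23 and 0.77).

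Tagln and Cald1, known from smooth muscle, stayed near the detection limit. Tagln read 103 and 105 in the control arrays, 113 in the Ifnar-/- array, the only array on which it was above background, and 102 in the sLTβR-Fc array. Cald1, caldesmon, read between 114 and 127 on the 4 arrays. Under the upper-quartile scaling both were higher in the sLTβR-Fc array (log2 0.51 and 0.45), beside a median of 0.40 over all genes. That scaling multiplies background too, so these values do not separate Tagln and Cald1 from other dim probes. Cnn1 and Myl9 were above background on no array.

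Filament turnover genes build, sever and recycle actin filaments. Coro1a, coronin 1A, an actin-binding protein of leukocytes, fell in the sLTβR-Fc array. It read 11780 and 9577 in the control arrays, 10917 in the Ifnar-/- array, between the controls, and 6868 in the sLTβR-Fc array (1.55-fold lower, log2 -0.63 ± 0.13, adjusted p = 0.00055). The further Coro1a probes gave -0.55, -0.40 and -0.24 there, all below both controls, with adjusted p values of 0.072, 0.28 and 0.11. Every tested Coro1a probe also read lower on control 2 than on control 1, by 0.13 to 0.52.

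Pfn1, profilin 1, which loads monomers for filament growth, read 1050 and 601 in the control arrays, 1477 in the Ifnar-/- array (log2 0.89 ± 0.25, adjusted p = 0.013) and 1035 in the sLTβR-Fc array, between the controls. The Ifnar-/- difference was 0.49 without control 2 and 1.30 without control 1, and a dim second probe lay at 0.02. Cfl1, cofilin 1, which severs filaments, read 705 and 730 in the control arrays, 775 in the Ifnar-/- array and 964 in the sLTβR-Fc array (log2 0.43 ± 0.22, adjusted p = 0.22). As deposited the sLTβR-Fc differences of Cfl1 and Pfn1 were -0.28 and -0.33. Wdr1, which helps cofilin, read between 4403 and 5273 on the 4 arrays and passed in neither comparison.

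Among the secreted targets, Ccn2, connective tissue growth factor, rose in the sLTβR-Fc array. It read 458 and 437 in the control arrays, 335 in the Ifnar-/- array (log2 -0.42 ± 0.20, adjusted p = 0.21) and 699 in the sLTβR-Fc array (log2 0.65 ± 0.20, adjusted p = 0.026), with the lone arrays on opposite sides of the controls. The second Ccn2 probe read 277, 302, 299 and 406 (log2 0.49 ± 0.18 in the sLTβR-Fc array, adjusted p = 0.059). In the values as deposited the first probe's difference on that array was -0.03. Ccn1, its relative, read between 105 and 115 and was above background only in the Ifnar-/- array, and Thbs1, thrombospondin 1, on none. Fhl2, an Srf cofactor, read 131 and 159 in the control arrays, 149 in the Ifnar-/- array and 132 in the sLTβR-Fc array, within the range of the controls. Its sLTβR-Fc difference was 0.32 under the upper-quartile scaling, beside a median of 0.40 over all genes.

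**Figure D4:**
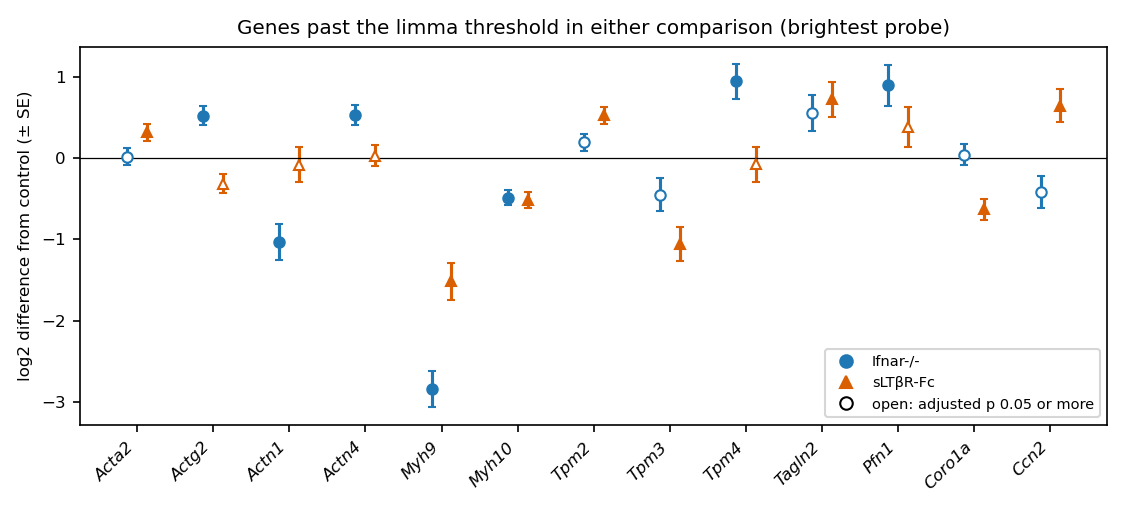
Log2 difference from the control mean with its SE from limma (brightest probe) for the 13 genes called in either comparison, Ifnar-/- as circles and sLTβR-Fc as triangles, filled where called. Myh9 has the lowest point of each array, and Myh10 has nearly the same value on both.

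Set directly against each other in the same fit, the lone arrays differed at 8 of the 30 genes. On the sLTβR-Fc array Myh9, Ccn2, Actn1 and Lima1 were higher than in the Ifnar-/- array (log2 1.33, 1.06, 0.95 and 0.57), beside 4.98% of all genes called higher. Tpm4, Actg2, Coro1a and Actn4 were lower (log2 -1.02, -0.84, -0.67 and -0.50), beside 3.79% of all genes called lower. The adjusted p values ran from 1.7e-05 for Actg2 to 0.031 for Lima1. The further tested probes lay the other way for Myh9 (log2 -0.15 and -0.33) and for Lima1 (log2 -0.16), so no direction is given for either gene. Those of Ccn2, Tpm4, Coro1a and Actn4 kept the direction of the brightest probe. This contrast compares single arrays and takes its spread from the controls.

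Other lists of the same pathway are read beside the shares of all genes called, 5.79% higher and 5.96% lower in the Ifnar-/- array and 7.71% and 5.86% in the sLTβR-Fc array. Among 20 tested genes of actin dynamics, 6 were called higher and 1 lower in the Ifnar-/- array, and 1 higher and 0 lower in the sLTβR-Fc array, where the share was thus no larger than over all genes. The higher ones in the Ifnar-/- array were Was, Capg, Lcp1, Capzb, Twf2 and Arpc2, of which Was, the Wiskott-Aldrich protein that starts branched filaments, read 2985 against 1479 and 1822 (log2 0.86 ± 0.21). Cap1, which recycles actin monomers, was the lower one, at 157 against 809 and 761, and 638 in the sLTβR-Fc array (log2 -2.32 ± 0.20 and -0.30 ± 0.20). Dstn, destrin, a relative of cofilin, was higher in the sLTβR-Fc array, at 2802 against 1357 and 1343 (log2 1.05 ± 0.22), but its second probe lay at 0.12. Of 14 tested adhesion genes, Zyx and Fermt3 were called higher in the Ifnar-/- array, Csrp1 and Itga5 higher in the sLTβR-Fc array, and Pdlim5 lower on both (log2 -0.84 ± 0.19 on each), with the further Pdlim5 probes at a median of -0.15 and -0.28.

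Srf also works with ternary complex factors at immediate early genes. Of 12 tested genes of that arm 4 were called higher in the Ifnar-/- array and 5 in the sLTβR-Fc array, where Elk4 and Mcl1, 2 of them, were called lower, beside the same shares of all genes. Fosb read 689 and 384 in the control arrays, 1629 in the Ifnar-/- array and 3256 in the sLTβR-Fc array. Egr1 read 4065 and 3291, then 5434 and 10997, and Fos 3484 and 2473, then 6557 and 8131. All 3 lay above both controls on both lone arrays, on which Srf itself lay between the controls. Junb was the other gene called higher in the Ifnar-/- array (log2 1.63), and Junb (log2 2.16) and Ier2 were the others in the sLTβR-Fc array. A second Junb probe lay at -0.02 and -0.11. The further Elk4 probes had a median of -0.08 in the sLTβR-Fc array, beside -0.99 for the brightest.

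Markers of other cells moved too, and their part in the results above was not tested. The sort took I-Ab negative cells, a gate that would remove B cells and dendritic cells, and CD11b low cells, a gate that would remove most neutrophils and eosinophils. Of the marginal zone macrophage list, Cd209b, Cd209d and Marco were above background, Cd5l and Msr1 were not and Cd68 had no probe. Cd209b, the SIGN-R1 gene, read 127 and 130.1 in the control arrays, 152 in the Ifnar-/- array and 145 in the sLTβR-Fc array, little above background. Cd209d, a relative of it, read 216 and 306, then 1304 and 315, and was called higher in the Ifnar-/- array (log2 2.34 ± 0.20, adjusted p = 4.9e-11). The sums of this list were 595 and 597 in the control arrays, 1636 in the Ifnar-/- array and 628 in the sLTβR-Fc array. In the control arrays the neutrophil marker Mpo read 25201 and 19311, and the B cell marker Cd79b 9386 and 9488. Intensities of different genes are not directly comparable, but these markers do not establish the sorted cells as marginal zone macrophages.

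Neutrophil markers (9 of 10 tested) summed to 46622 and 31882 in the control arrays, 16122 in the Ifnar-/- array and 58334 in the sLTβR-Fc array, with all 9 below both controls in the Ifnar-/- array. Camp, Lcn2, Ltf, S100a8 and S100a9 were 2-fold lower than both controls there, and Elane and Cebpe were 2-fold higher in the sLTβR-Fc array. On the sLTβR-Fc array 5 of the 9 lay above both controls, 3 between them and 1, Ngp, below both. Mpo alone made up 31594.5 of the sum on that array. Eosinophil markers (5 of 6) summed to 5076 and 5768 in the control arrays, 4308 in the Ifnar-/- array and 27934 in the sLTβR-Fc array, where Epx, Prg2, Prg3 and Ear6 were 2-fold higher than both controls.

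T cell markers lay below both controls for 5 of 6 in the Ifnar-/- array, with 2 called lower, and for 6 of 6 in the sLTβR-Fc array, with 5 called lower. Their sums were 8202 and 9717 in the control arrays, 6091 in the Ifnar-/- array and 4883 in the sLTβR-Fc array. T cells are among the leukocytes rich in Coro1a, and their part in its values was not tested. B cell markers (4 of 6) summed to 14413 and 13857, then 20970 and 9945. Dendritic cell markers (6 of 6) summed to 2743 and 2568, then 3233 and 2154, of which Ccr7 made up 1937 and 1719, then 1561 and 1117. Batf3, Itgax and Zbtb46 were 2-fold higher than both controls in the Ifnar-/- array, and in the sLTβR-Fc array Batf3 and Zbtb46 were called higher (log2 0.84 and 0.48) while Ccr7 was called lower. Platelets are rich in Myh9, Actn1 and Tpm4, and their markers (9 of 13) summed to 2040 and 3523 in the control arrays, 1734 in the Ifnar-/- array and 2794 in the sLTβR-Fc array. Pf4, the platelet chemokine, read 777 and 1883, then 473 and 1258, and was called lower in the Ifnar-/- array (log2 -1.36). Gp5 was called lower on both lone arrays (log2 -0.98 and -0.71). Tubb1 was called higher in the Ifnar-/- array (0.32), with its further probes at a median of -0.09, and Itga2b higher in the sLTβR-Fc array (0.78). Of the 9, 1 lay above both controls, 3 below both and 5 between them in the Ifnar-/- array. The counts were 4, 1 and 4 in the sLTβR-Fc array. Ppbp, Gp1bb and Clec1b were above background on only 2 arrays each. Erythroid markers (5 of 8) summed to 4281 and 2293, then 1570 and 1974, and Klf1 was 2-fold lower than both controls on both lone arrays.

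Smooth muscle markers (8 of 11, of which Acta2, Actg2 and Tagln belong to the group described here) summed to 1025 and 1053 in the control arrays, 1147 in the Ifnar-/- array and 1230 in the sLTβR-Fc array, and Cnn1, Lmod1 and Synpo2 were not among those tested. Myh11, the smooth muscle heavy chain, read between 100.4 and 113. In the sLTβR-Fc array, where Acta2 was called, Smtn read 268 against 151 and 165 (log2 0.77 ± 0.13, adjusted p = 3.0e-05) and Des 165 against 128 and 125 (log2 0.38 ± 0.10, adjusted p = 0.0079). Stromal and endothelial markers (15 of 17) summed to 3053 and 2516, then 3021 and 3922, with Dcn, decorin of fibroblasts, at 591 and 367 in the control arrays, 542 in the Ifnar-/- array and 1275 in the sLTβR-Fc array.

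Probes above background numbered 23798 to 24365 per array. Between the controls 31 genes stood 2-fold apart, against 276 to 424 between any other pair of arrays. The labels do not say whether the control arrays came from separate sorts, so the spread behind every p-value is that of these 2 arrays and may be technical. The number of arrays limits the precision of every value.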

How the data were processed

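RNA of spleen cells sorted as marginal zone macrophages was hybridised to single-colour Illumina arrays. The values used are the linear intensities that the authors deposited, 1 per probe and array. GenomeStudio 2011.1 is named in the submitters' processing notes, its settings are unstated in the labels and notes, and the values show no scaling or background subtraction. Probes were named through the platform annotation (34885 with 1 symbol, 18 with several, 10378 with none).

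Background was the most frequent intensity of each array, and a probe counted as above it past the 95% point of the noise mirrored from below (limits 113, 115, 106 and 108 in the order control 1, control 2, Ifnar-/- and sLTβR-Fc). Intensities were quantile normalised and converted to log2 with no floor, because a floor left many probes with no spread between controls. Probes with 1 symbol above background on at least 1 array were fitted in limma 3.58.1 (R 4.3.3) as 3 group means, with eBayes and a trend, and Benjamini-Hochberg adjustment over all probes at 0.05. The fit was run on simulated data in which all 4 arrays were given the spread that the fit estimated. That run cannot show whether the lone arrays vary as the controls do. Normexp used an offset of 50. Members and lists were chosen with earlier results of these data known. Values on all arrays are given for the regulators, for a fixed set of members, for members 1.5-fold from each control and for those with disagreeing probes. For the other lists reported, members 2-fold from both controls are named, and others named there were chosen after their values were seen. Protein identity was not computed, as no protein table was used here. A further gene list that was fitted is not reported here.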

Additional observations from a re-analysis of the deposited data

How the results depend on the processing

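No paired analysis was possible, because each lone group has 1 array and the labels link no array to another. The values in this part follow the order Ifnar-/- then sLTβR-Fc. In the values as deposited the members' medians were -0.085 and -0.29, and 2 members were 2-fold from both controls in each comparison. On the sLTβR-Fc array 13 members were called, beside 177 higher and 4908 lower of all 14785 genes. Between the lone arrays 5 members were called, for which no share of all genes is given. Upper-quartile scaling gave medians of 0.20 and 0.31 and 2 members 2-fold on the Ifnar-/- array. It called 14 members on the sLTβR-Fc array, beside 7855 higher and 914 lower of all 14785 genes. Normexp gave 2 members 2-fold on the Ifnar-/- array. With a floor the Ifnar-/- median was 0.046 and limma called 0 members in all 3 contrasts. Without a variance trend 4, 5 and 4 members were called. No share of all genes is given for these counts, so they do not set the members apart from other genes. With only probes above background on all 4 arrays the sLTβR-Fc median was -0.043. The median over a gene's probes gave medians of 0.11 and 0.020 and 0 members 2-fold in either comparison. Leaving out a control gave Ifnar-/- medians of 0.095 to 0.13 with 2 to 3 members 2-fold, and sLTβR-Fc medians of -0.0093 to 0.026 with 1 to 2. These values have no residual degree of freedom and no test, and the 2-fold counts could only stay or rise. Where either setting made a call, reversed values were, on the sLTβR-Fc array as deposited, -0.51 for Myl12b and -0.034 for Ccn2; under upper-quartile scaling 0.31 for Actb, 0.51 for Tagln and 0.45 for Cald1; and by the median over probes 0.28 for Myh9 (Ifnar-/-) and 0.038 for Tpm3 (sLTβR-Fc). Members with no call in either setting turned too, among them, on the sLTβR-Fc array, Myl6, Flna, Cfl1, Pfn1 and Lima1 as deposited and Actg2 and Fhl2 under upper-quartile scaling. Upper-quartile scaling also multiplies background, which moves dim probes, and the causes of the other changes were not tested. Dim members, such as Mrtfa and Tagln, are limited by signal over background.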
